A study of Homo sapiens with 12 samples.

Results

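The genes described here are 42 type I interferon antiviral genes, chosen by gene symbol from a list of genes that interferon switches on against viruses. A feature, that is the probe set of a transcript, carried 34 of these symbols among the 13422 named genes of the array, and where a gene had several features the feature with the highest mean over the 12 arrays was used. OAS1 and OAS2 had 3 features each and OASL had 2. IFIT1, IFI16, IFI27, IFI44L, HERC6, SAMD9L, EPSTI1 and CMPK2 were not analysed here. Messenger RNA was measured in PANC-1, a single cell line from a human pancreatic ductal carcinoma, on single-colour arrays with 3 arrays in each of 4 groups. NPC was PANC-1 cells alone under normoxia and NPM was PANC-1 cells co-cultured with tumor-associated macrophages (TAMs) under normoxia, while HPC and HPM were the corresponding groups under hypoxia. Co-culture lasted 4 days in a transwell system, in which the tumor cells and the macrophages sit in separate chambers and share the medium. The TAMs of the study were made from the THP-1 monocytic cell line with phorbol ester and then interleukins that drive the M2 phenotype, so that they stand for primary macrophages only as a cell line model. The oxygen level under hypoxia and the time that cells alone were kept were not given in the sources used here, and neither the labels nor the array methods say whether the 3 arrays of a group came from separate cultures. The general statement of the methods that data come from independent experiments does not name the arrays, so p values measure the spread between these arrays, which may be technical.

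Type I interferons bind the receptor pair IFNAR1 and IFNAR2, and the kinases JAK1 and TYK2 then start the assembly of the factor ISGF3, of which STAT2 and IRF9 are parts. ISGF3 binds the interferon-stimulated response element in the promoters of antiviral genes. Type III interferons reach the same factor through another receptor, interferon-gamma reaches an overlapping set of genes, in part through IRF1, and viral RNA in the cytosol can switch on several of these genes through IRF3 without interferon. The products act at different steps of infection: they sense viral RNA, cut or edit it, stop its translation, trap virions at membranes and attach the ubiquitin-like protein ISG15 to other proteins.

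The arrays resembled each other closely, with Pearson correlations across features between 0.942 and 0.973 for arrays of one group and between 0.909 and 0.972 for arrays of different groups. Same-numbered arrays deviated together within an oxygen level. Arrays numbered 1 and 3 had residual correlations of -0.411 and -0.252 under normoxia and of -0.455 and -0.394 under hypoxia. For arrays numbered 2 and 3 they were -0.221 and -0.376 under normoxia and -0.0822 and -0.212 under hypoxia. Residuals are deviations from the group mean and sum to 0 in each group. Negative values between different numbers are thus in part built in and do not mark out the arrays numbered 3. Without the arrays numbered 3, that is with 2 arrays in each group, 0 of 34487 features passed in HPM vs HPC, HPC vs NPC, HPM vs NPM or the interaction, and 1 passed in NPM vs NPC, so that every call given here was lost in that setting. All 9 measured genes of a list of hypoxia-induced genes had a positive log2 fold change under hypoxia in cells alone, with a median of 1.05. Of these 9, 0 passed there (limma, smallest adjusted p = 0.0506). In co-cultured cells all 9 passed, with a median of 1.63, where 4.65% of all features rose. With 1 array left out 1 to 7 passed in co-cultured cells, where 0.293% to 2.66% of all features rose. Of 9 markers of epithelial tumor cells, 6 lay within the highest 25% of features on every array.

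The median over the 34 genes separated the groups. On the log2 intensity scale it was 9.80, 9.83 and 9.56 on the 3 NPC arrays, 10.49, 10.34 and 10.25 on the NPM arrays, 9.34, 9.22 and 8.93 on the HPC arrays, and 9.21, 9.05 and 9.30 on the HPM arrays. The median over all features lay between 9.17 and 9.29 on every array. Co-cultured normoxic cells were thus the highest group on every array, and the 2 hypoxic groups overlapped below the cells grown alone under normoxia.

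**Figure D1:**
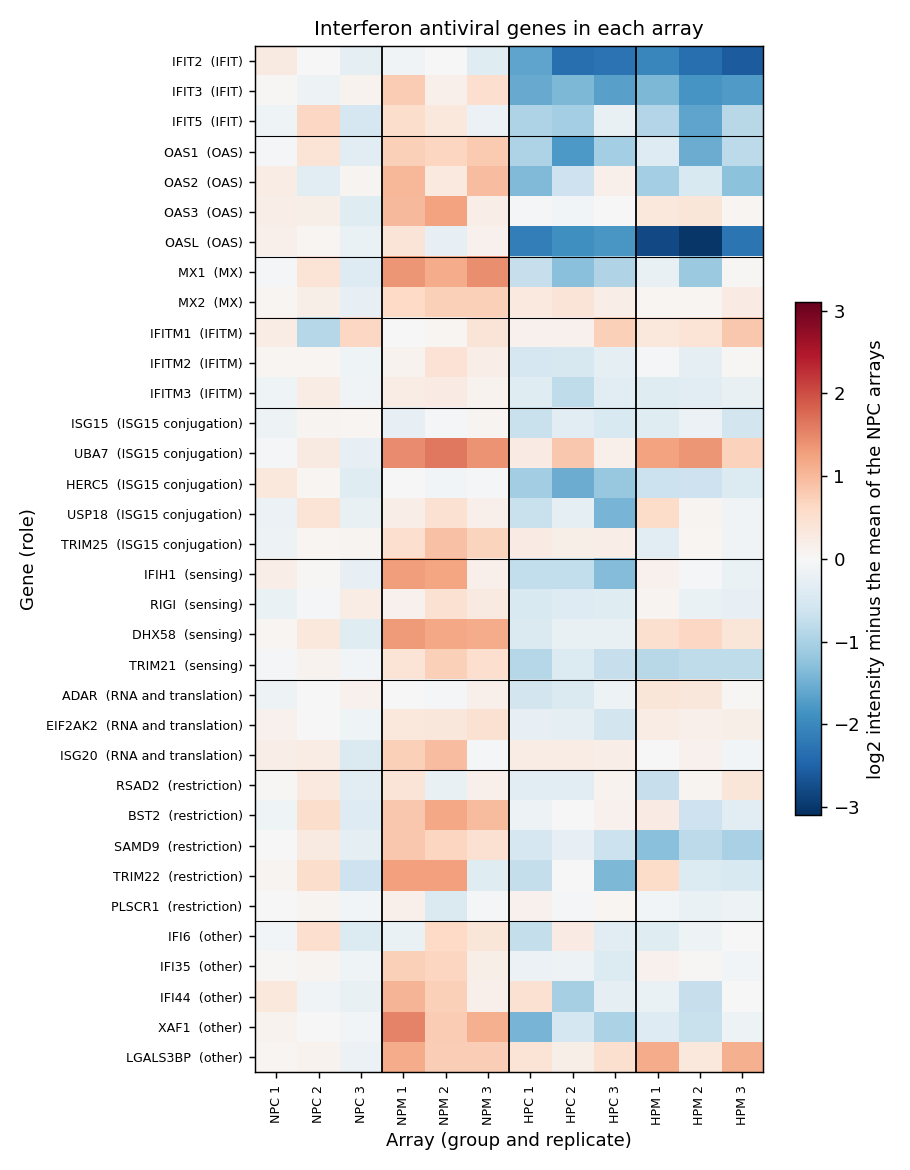
Each row is 1 of the 34 measured interferon antiviral genes, grouped by role, and each column 1 of the 12 arrays; the colour is log2 intensity minus the mean of the 3 NPC arrays. The NPM columns are mostly red, while IFIT2, IFIT3 and OASL are blue in all HPC and HPM columns.

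To show the regulatory sequence these genes share, promoter windows of 300 bases, from 250 bases before to 50 bases after each transcript start, were taken from RefSeq on GRCh38.p14. They were searched on both strands for the core of the interferon-stimulated response element, written GAAANNGAAA, which reads TTTCNNTTTC on the other strand and can overlap itself. Of 25 measured antiviral genes with a window, 19 (76.0%) held the letters, against 4.38% of 27305 genes with a window and 3.57% of all 35116 windows. A match is a description of the letters and not evidence that a factor bound there. In HPM vs NPM 6 of the 19 genes with the letters fell (limma, adjusted p under 0.05), and 3 of the 6 without them, where 5.79% of all features fell. A link between the letters and the fall was not tested. The windows below belong to genes that fell in HPM vs NPM, with the matching letters in capitals. IFIT3 has 2 windows, at chr10:89327747-89328046 and chr10:89332279-89332578 on the plus strand. The IFIT5 window is chr10:89414318-89414617 on the plus strand, and those of TRIM21 (chr11:4393653-4393952), BST2 (chr19:17405581-17405880) and SAMD9 (chr7:93117930-93118229) are on the minus strand. The OAS1 window, chr12:112906712-112907011 on the plus strand, is shown as one without these letters.
IFIT3, first window: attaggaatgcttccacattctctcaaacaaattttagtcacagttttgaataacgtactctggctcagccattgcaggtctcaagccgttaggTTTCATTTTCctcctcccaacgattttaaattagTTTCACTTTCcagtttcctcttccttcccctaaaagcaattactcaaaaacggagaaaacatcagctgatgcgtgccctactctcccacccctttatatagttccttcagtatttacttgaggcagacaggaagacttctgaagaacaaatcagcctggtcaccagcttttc
IFIT3, second window: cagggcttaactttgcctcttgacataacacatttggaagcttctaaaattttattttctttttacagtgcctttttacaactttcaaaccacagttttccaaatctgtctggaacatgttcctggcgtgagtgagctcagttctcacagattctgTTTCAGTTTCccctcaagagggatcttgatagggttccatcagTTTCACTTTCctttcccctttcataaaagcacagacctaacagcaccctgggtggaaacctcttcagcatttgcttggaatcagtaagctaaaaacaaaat
IFIT5: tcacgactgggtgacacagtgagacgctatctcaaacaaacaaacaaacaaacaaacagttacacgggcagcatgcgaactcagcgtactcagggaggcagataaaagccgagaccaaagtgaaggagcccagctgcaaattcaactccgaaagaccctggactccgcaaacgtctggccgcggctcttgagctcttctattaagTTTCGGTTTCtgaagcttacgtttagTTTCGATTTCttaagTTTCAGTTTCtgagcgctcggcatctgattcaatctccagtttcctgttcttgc
TRIM21: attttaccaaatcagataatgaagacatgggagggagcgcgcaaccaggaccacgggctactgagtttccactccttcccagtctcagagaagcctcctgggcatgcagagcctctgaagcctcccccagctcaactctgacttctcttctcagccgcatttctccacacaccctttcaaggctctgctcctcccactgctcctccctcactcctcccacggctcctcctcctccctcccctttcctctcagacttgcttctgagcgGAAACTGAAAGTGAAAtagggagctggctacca
BST2: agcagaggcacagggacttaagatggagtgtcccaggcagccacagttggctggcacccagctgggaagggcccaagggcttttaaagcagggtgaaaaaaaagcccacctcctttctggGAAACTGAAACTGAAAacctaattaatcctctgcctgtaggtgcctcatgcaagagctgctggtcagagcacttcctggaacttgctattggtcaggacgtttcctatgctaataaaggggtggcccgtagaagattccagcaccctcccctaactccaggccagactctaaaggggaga
SAMD9: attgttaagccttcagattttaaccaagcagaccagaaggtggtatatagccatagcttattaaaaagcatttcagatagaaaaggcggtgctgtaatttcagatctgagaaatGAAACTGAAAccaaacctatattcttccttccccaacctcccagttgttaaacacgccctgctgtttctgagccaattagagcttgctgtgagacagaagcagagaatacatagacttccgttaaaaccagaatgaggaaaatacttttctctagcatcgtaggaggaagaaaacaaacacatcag
OAS1: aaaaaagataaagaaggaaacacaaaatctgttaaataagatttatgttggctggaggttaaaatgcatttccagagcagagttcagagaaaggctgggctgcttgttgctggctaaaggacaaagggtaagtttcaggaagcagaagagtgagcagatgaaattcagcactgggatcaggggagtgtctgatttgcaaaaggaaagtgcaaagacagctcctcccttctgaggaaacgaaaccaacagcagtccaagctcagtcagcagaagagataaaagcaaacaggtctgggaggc
In the first IFIT3 window the matches start 156 and 122 bases before the transcript start, and in the second 94 and 51 bases before it. The IFIT5 window holds 3 matches, at 45, 19 and 4 bases before the start. In TRIM21 and BST2 a pair of matches overlaps, beginning 18 and 24 bases after the start in TRIM21 and 130 and 124 bases before it in BST2. SAMD9 has 1 match, 136 bases before the start. XAF1 and TRIM25, which also fell in HPM vs NPM, had windows without the letters, and MX1 had them in 2 of its 3 windows. Among the genes whose windows are shown, only IFIT3 also passed in HPC vs NPC.

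Under hypoxia, co-cultured PANC-1 cells had less RNA of many antiviral genes than under normoxia. In HPM vs NPM 13 of the 34 genes fell (limma, adjusted p under 0.05 over all 34487 features) and 0 rose, where 5.79% of all features fell and 4.65% rose. They were OASL, IFIT2, IFIT3, TRIM21, SAMD9, XAF1, OAS2, OAS1, MX1, BST2, DHX58, IFIT5 and TRIM25. The falls ran from 6.91-fold for OASL to 1.64-fold for DHX58. For all 34 genes the median log2 fold change was -0.57, against -0.0019 for all features, and the values ran from -2.79 to 0.37, with 2 genes above 0. Before adjustment 20 genes had a p under 0.05 with a lower mean and 0 with a higher one, while 14.9% of all features had the first and 13.0% the second. All HPM arrays lay below all NPM arrays for 23 genes and above them for 0, against 18.2% and 16.3% of all features. In these bulk samples a lower level per cell and fewer cells with a high level cannot be told apart.

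In cells grown alone, hypoxia gave fewer calls in the same direction. OASL fell 3.85-fold and IFIT3 fell 2.93-fold in HPC vs NPC, and no antiviral gene rose. These were 2 of the 6 features, 0.0174% of all, that fell at an adjusted p under 0.05, while 0.139% rose. Before adjustment 13 genes had a p under 0.05 with a lower mean and 0 with a higher one, against 8.90% and 8.92% of all features. All HPC arrays lay below all NPC arrays for 17 genes, and above them for LGALS3BP, MX2 and TRIM25, against 13.5% and 12.3% of all features. For the 34 genes the median log2 fold change was -0.42, for all features -0.00052. The 2 hypoxia comparisons share no arrays.

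Fewer genes passed with fewer arrays in the fit, and the cause was not tested. With 1 array left out, the count of 13 in HPM vs NPM became 8 without HPM replicate 1, 8 without HPM replicate 2, 7 without HPM replicate 3, 5 without NPM replicate 1, 3 without NPM replicate 2 and 8 without NPM replicate 3. The number of all 34487 features that fell, 1998 with all arrays, became 896, 369, 600, 320, 90 and 1036 in the same order. OASL, IFIT2 and IFIT3 passed each time, and TRIM21 and SAMD9 passed each time except without NPM replicate 2. Without the arrays numbered 3 none of the 34 passed, with a smallest adjusted p of 0.0739. In HPC vs NPC no gene passed with any 1 of the 6 arrays left out or without the arrays numbered 3. In each of these settings 0 of all 34487 features fell or rose there. One fit over all 12 arrays called 14 genes lower in HPM vs NPM and 6 in HPC vs NPC, against 8.84% and 1.67% of all features.

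**Figure D2:**
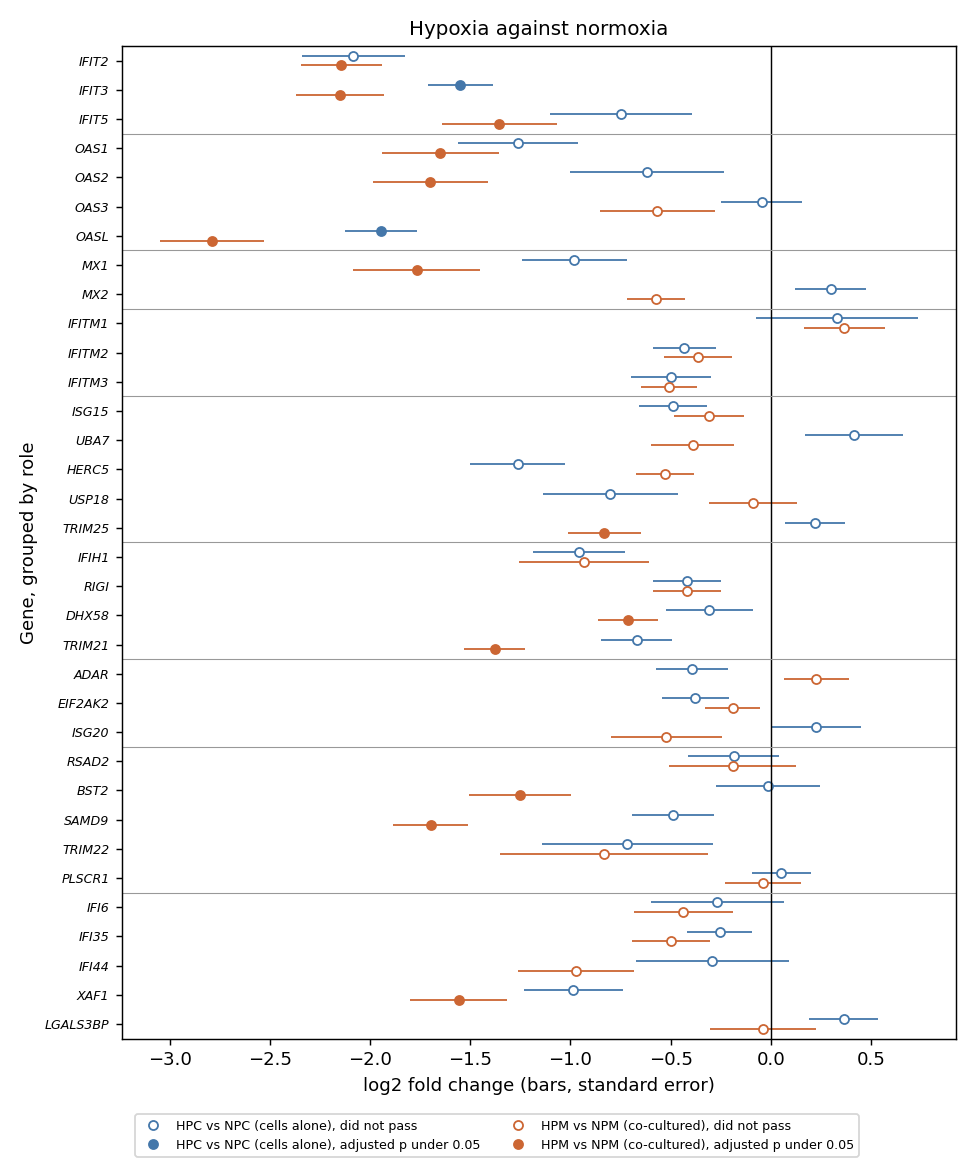
The horizontal axis is the log2 fold change of hypoxia over normoxia with its standard error for each of the 34 genes, in PANC-1 cells alone (HPC vs NPC, blue) and in co-cultured cells (HPM vs NPM, orange); filled points passed at an adjusted p under 0.05. The filled points, 2 blue and 13 orange, all lie left of 0.

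IFIT proteins bind foreign RNA, such as RNA that lacks the methylation of the host cap, and keep it from being translated, and their genes sit together on chromosome 10. IFIT2 read 11.56, 11.27 and 10.98 on the NPC arrays and 9.64, 8.94 and 8.98 on the HPC arrays, as log2 intensities. In co-culture IFIT2 read 11.16, 11.27 and 10.89 on the NPM arrays and 9.26, 8.94 and 8.70 on the HPM arrays. Hypoxic and normoxic arrays of IFIT2 were at least 1 log2 unit apart with and without macrophages. The log2 fold change was -2.14 (SE 0.20, adjusted p = 0.00748) in HPM vs NPM and -2.08 (SE 0.26, adjusted p = 0.0506) in HPC vs NPC, where the gene just missed the threshold.

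IFIT3, which binds and stabilises IFIT1, read 10.61, 10.42 and 10.68 in NPC, 11.34, 10.71 and 11.10 in NPM, 9.00, 9.18 and 8.88 in HPC, and 9.17, 8.73 and 8.81 in HPM. Again no hypoxic array reached a normoxic one. The fall was 2.15 on the log2 scale (SE 0.22, adjusted p = 0.0084) with TAMs and 1.55 (SE 0.16, adjusted p = 0.0423) without them. IFIT5 read 7.89, 8.68 and 7.52 in NPC, 8.57, 8.35 and 7.84 in NPM, 7.08, 6.98 and 7.79 in HPC, and 7.12, 6.40 and 7.18 in HPM. Its HPM arrays lay below its NPM arrays, with a log2 fold change of -1.35 (SE 0.29, adjusted p = 0.0348), while HPC and NPC overlapped (log2 fold change -0.75, adjusted p = 0.332). In HPM the IFIT5 feature ranked within the lowest 15.7% of features, so the size of its fall is uncertain.

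Oligoadenylate synthetases make the short adenylate chains that switch on RNase L, an enzyme that degrades RNA. OAS1, OAS2, OAS3 and OASL lie on chromosome 12, and OASL is a relative without that enzyme activity that takes part in RNA sensing by RIG-I. OASL read 9.86, 9.77 and 9.51 in NPC, 10.11, 9.47 and 9.85 in NPM, 7.57, 7.82 and 7.92 in HPC, and 6.92, 6.70 and 7.45 in HPM. Every hypoxic array was lower than every normoxic one, and the HPM arrays were the lowest. The log2 fold change of OASL was -2.79 (SE 0.26, adjusted p = 0.00742) in HPM vs NPM and -1.95 (SE 0.18, adjusted p = 0.0337) in HPC vs NPC. In HPM this feature ranked within the lowest 20.2% of features. A second OASL feature gave -1.45 (adjusted p = 0.00915) and -1.34 (adjusted p = 0.146).

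OAS1 read 9.15, 9.65 and 8.85 in NPC, 9.95, 9.89 and 10.03 in NPM, 8.26, 7.43 and 8.16 in HPC, and 8.82, 7.68 and 8.41 in HPM. Its log2 fold change was -1.65 (SE 0.29, adjusted p = 0.0225) in HPM vs NPM, and the other features of OAS1 gave -1.69 and -1.63 and also passed. In cells alone it was -1.26 (SE 0.30, adjusted p = 0.118), without overlap between HPC and NPC. OAS2 read 8.18, 7.63 and 8.03 in NPC, 8.97, 8.26 and 8.91 in NPM, 6.58, 7.31 and 8.10 in HPC, and 6.88, 7.48 and 6.68 in HPM. OAS2 fell by 1.70 (SE 0.29, adjusted p = 0.0207) in HPM vs NPM, and of its other features, with -1.37 and -1.15, the first passed and the second did not (adjusted p = 0.0129 and 0.115). In HPM the OAS2 feature used ranked within the lowest 21.0% of features, so the size of its fall is uncertain. OAS3 did not pass, with -0.57 (adjusted p = 0.258) in HPM vs NPM and -0.05 in HPC vs NPC.

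MX1 and MX2 are dynamin-like GTPases, neighbours on chromosome 21, that block the nucleocapsids of incoming viruses. MX1 read 9.10, 9.55 and 8.74 in NPC, 10.49, 10.27 and 10.56 in NPM, 8.42, 7.84 and 8.19 in HPC, and 8.89, 7.97 and 9.16 in HPM. All NPM arrays were above all the others, and MX1 fell by 1.77 (SE 0.32, adjusted p = 0.0234) in HPM vs NPM. In HPC vs NPC its log2 fold change was -0.98 (SE 0.26, adjusted p = 0.14). MX2 read 9.18, 9.30 and 8.85 in NPC, 9.72, 9.84 and 9.84 in NPM, 9.42, 9.50 and 9.30 in HPC, and 9.17, 9.16 and 9.35 in HPM. Thus MX2 had values of opposite sign, -0.57 (adjusted p = 0.052) with TAMs and 0.30 (adjusted p = 0.431) without them, and neither passed.

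Among restriction factors, SAMD9, which blocks poxviruses, and BST2 (tetherin), which holds budding virions at the cell surface, fell in co-cultured cells. SAMD9 read 8.47, 8.72 and 8.17 in NPC, 9.29, 9.11 and 8.93 in NPM, 7.93, 8.19 and 7.78 in HPC, and 7.15, 7.63 and 7.45 in HPM. The HPM arrays of SAMD9 were below all other arrays, within the lowest 23.5% of features, and the log2 fold change in HPM vs NPM was -1.70 (SE 0.19, adjusted p = 0.00915). BST2 read 8.32, 9.00 and 8.07 in NPC, 9.29, 9.67 and 9.45 in NPM, 8.30, 8.46 and 8.59 in HPC, and 8.71, 7.82 and 8.13 in HPM. Its NPM arrays stood above the other 3 groups, which overlapped. The log2 fold change was -1.25 (SE 0.26, adjusted p = 0.0316) in HPM vs NPM and -0.01 (adjusted p = 0.986) in HPC vs NPC. RSAD2 (viperin), TRIM22 and the phospholipid scramblase PLSCR1 did not pass in any comparison, with values between -0.83 and 0.05 in the 2 hypoxia comparisons. RSAD2 ranked within the lowest 25.9% of features on every array, and TRIM22 within the lowest 30.8%.

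Of the sensing genes, TRIM21, a cytosolic antibody receptor, read 11.60, 11.74 and 11.54 in NPC, 12.05, 12.37 and 12.14 in NPM, 10.74, 11.21 and 10.92 in HPC, and 10.76, 10.83 and 10.84 in HPM. It fell by 1.38 (SE 0.15, adjusted p = 0.00915) in HPM vs NPM. In cells alone the groups did not overlap either, with -0.67 (SE 0.18, adjusted p = 0.14). DHX58, which encodes LGP2, a regulator of the RNA helicase sensors, read 8.28, 8.56 and 7.85 in NPC, 9.55, 9.42 and 9.37 in NPM, 7.77, 7.99 and 8.00 in HPC, and 8.73, 8.87 and 8.60 in HPM. DHX58 was highest in NPM and next in HPM, and its log2 fold change was -0.71 (SE 0.15, adjusted p = 0.0335) in HPM vs NPM and -0.31 (adjusted p = 0.51) in HPC vs NPC. IFIH1, which encodes the sensor MDA5 for long double-stranded RNA, read 10.23, 10.06 and 9.76 in NPC, 11.31, 11.25 and 10.17 in NPM, 9.26, 9.27 and 8.67 in HPC, and 10.16, 9.97 and 9.80 in HPM. In both hypoxia comparisons the IFIH1 groups lay apart, with TAMs by 0.01 only, and it had log2 fold changes of -0.96 (SE 0.23, adjusted p = 0.121) alone and -0.93 (SE 0.33, adjusted p = 0.121) with TAMs, and neither passed. RIGI, the sensor of RNA with a triphosphate end, had -0.42 in both.

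In the ISG15 pathway, UBA7 is the activating enzyme, HERC5 and TRIM25 are ligases, and USP18 removes ISG15 and dampens the interferon receptor. TRIM25, which also activates RIG-I, read 12.03, 12.25 and 12.28 in NPC, 12.70, 13.09 and 12.87 in NPM, 12.44, 12.37 and 12.39 in HPC, and 11.84, 12.24 and 12.08 in HPM. It fell by 0.83 (SE 0.18, adjusted p = 0.0372) in HPM vs NPM, whereas in cells alone the HPC arrays lay above the NPC arrays, with 0.22 (SE 0.15, adjusted p = 0.499). HERC5 read 9.44, 9.16 and 8.72 in NPC, 9.09, 9.03 and 9.08 in NPM, 8.04, 7.58 and 7.93 in HPC, and 8.44, 8.48 and 8.69 in HPM. The HERC5 groups were apart in both comparisons, with -1.26 (SE 0.24, adjusted p = 0.0902) alone and -0.53 (SE 0.14, adjusted p = 0.0666) with TAMs. ISG15 itself had -0.49 and -0.31, and USP18 had -0.80 and -0.09, in the same order, and none of these passed.

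Of the remaining genes 1 passed. XAF1, a pro-apoptotic partner of the inhibitor XIAP, read 9.52, 9.40 and 9.34 in NPC, 10.95, 10.22 and 10.52 in NPM, 7.98, 8.88 and 8.45 in HPC, and 9.03, 8.73 and 9.26 in HPM. It fell by 1.56 (SE 0.24, adjusted p = 0.0169) in HPM vs NPM, and its value in cells alone was -0.99 (SE 0.25, adjusted p = 0.128). The 3 IFITM genes on chromosome 11, whose membrane proteins hinder the fusion of virions, ran between -0.51 and 0.37 in the 2 hypoxia comparisons, and IFITM2 and IFITM3 ranked at or above 97.6% of features on every array. IFI6, IFI35, IFI44, ISG20 and LGALS3BP ran between -0.97 and 0.36, and ADAR, EIF2AK2 and UBA7 between -0.40 and 0.41, and none of these passed.

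**Figure D3:**
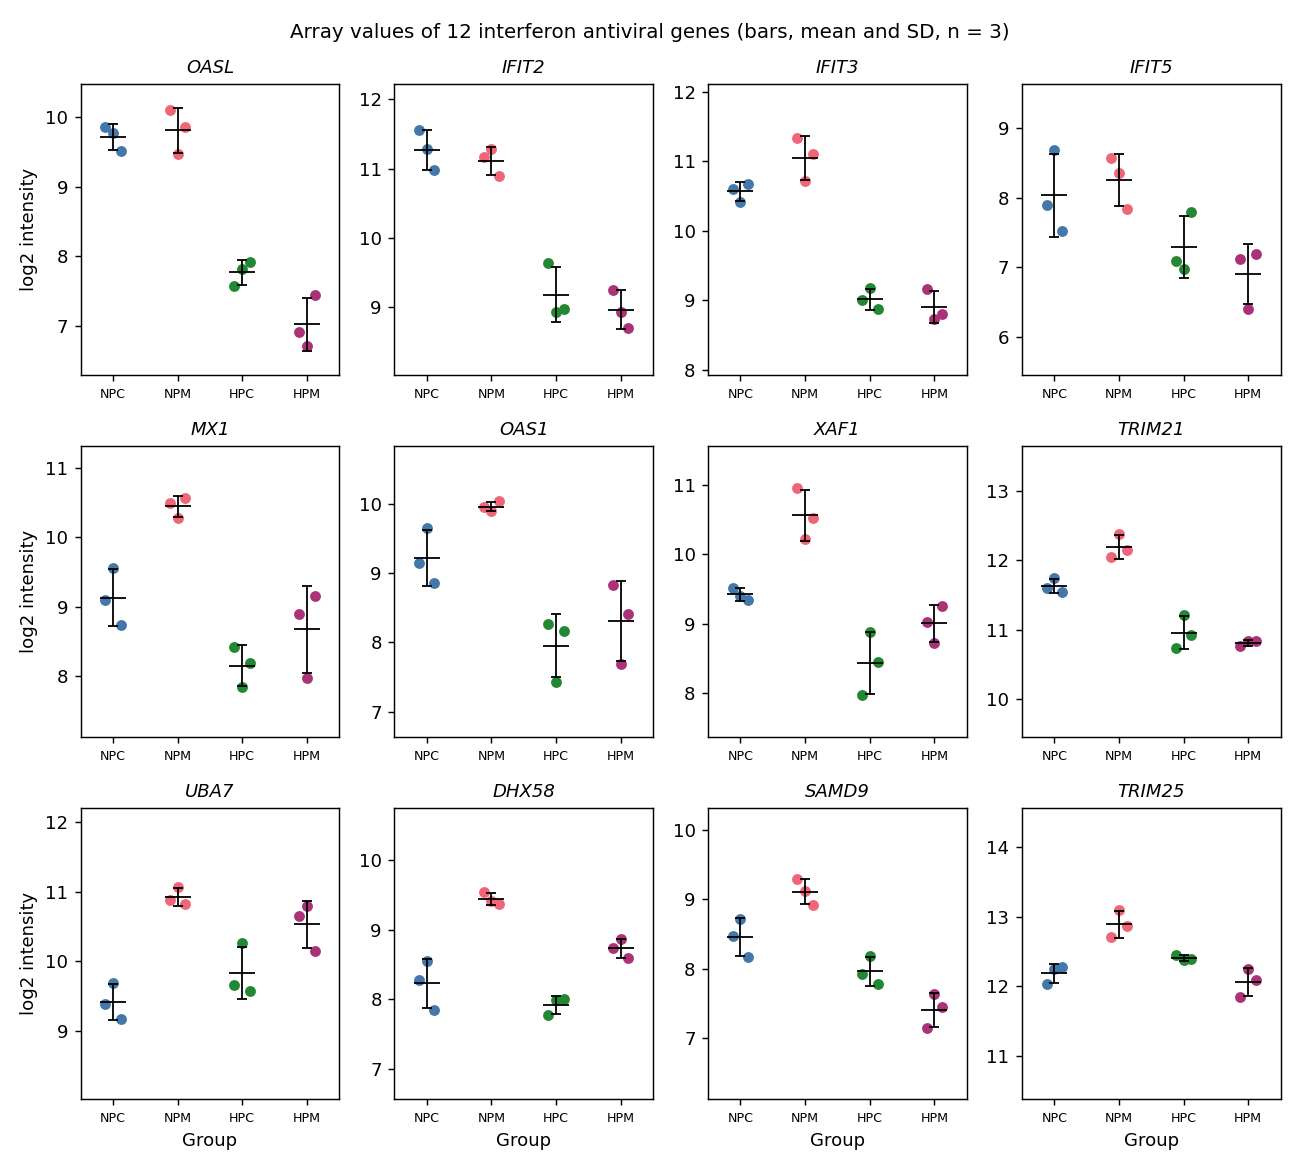
The vertical axis of each panel is log2 intensity, over the same span in all panels, for 12 of the antiviral genes; points are the 3 arrays of each group and the black bars the mean and SD. In OASL, IFIT2 and IFIT3 both hypoxic groups lie below both normoxic groups, and in MX1, UBA7, XAF1 and DHX58 the NPM arrays are the highest.

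Under normoxia most of these genes had a higher mean with TAMs than without, but none passed the test. In NPM vs NPC the largest differences were those of UBA7 (2.83-fold), MX1 (2.48-fold), DHX58 (2.32-fold) and XAF1 (2.21-fold). Over the 34 genes the median log2 fold change was 0.53, against -0.0087 for all features, the values ran from -0.16 to 1.50, and 30 of 34 were above 0. With limma 0 genes had an adjusted p under 0.05 in either direction, and of all features 0.00870% rose and 0.0145% fell. Before adjustment 16 genes had a p under 0.05 with a higher mean and 0 with a lower one, against 5.65% and 8.00% of all features. For 16 genes all NPM arrays lay above all NPC arrays and for 0 below, against 8.84% and 12.6% of all features. The smallest adjusted p was 0.0843, for UBA7. One fit over all 12 arrays called UBA7, DHX58, XAF1, TRIM25 and MX2 higher, that is 5 of 34, against 1.02% of all features. With the replicate number within an oxygen level as a block over the 12 arrays, OAS3, MX1, UBA7, TRIM25, DHX58 and LGALS3BP, 6 of 34, were called higher, against 1.42% of all features. The block over the 6 arrays left 0 of 34 higher, and 0.00% of all features.

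UBA7 read 9.39, 9.70 and 9.18 in NPC, 10.88, 11.07 and 10.82 in NPM, 9.66, 10.26 and 9.58 in HPC, and 10.66, 10.79 and 10.14 in HPM. Its NPM arrays were more than 1 log2 unit above its NPC arrays, whereas the HPM and HPC arrays overlapped. The log2 fold change was 1.50 (SE 0.19, adjusted p = 0.0843) under normoxia and 0.70 (SE 0.26, adjusted p = 0.201) under hypoxia. With the array values given above, DHX58 had 1.21 (SE 0.21, adjusted p = 0.107), MX1 had 1.31 (SE 0.24, adjusted p = 0.114), XAF1 had 1.14 (SE 0.22, adjusted p = 0.12) and TRIM25 had 0.70 (SE 0.17, adjusted p = 0.17) in NPM vs NPC. For each of these 4 genes the NPM arrays lay above the NPC arrays. LGALS3BP, a secreted glycoprotein that binds galectins, read 10.79, 10.86 and 10.56 in NPC, 11.90, 11.50 and 11.51 in NPM, 11.16, 10.91 and 11.23 in HPC, and 11.88, 11.06 and 11.85 in HPM. The LGALS3BP difference was 0.90 (SE 0.18, adjusted p = 0.132) under normoxia and 0.50 (SE 0.25, adjusted p = 0.333) under hypoxia, where the groups overlapped.

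By family, and without a test between families, the values under normoxia were as follows. Of the OAS genes 3 of 4 had an unadjusted p under 0.05, namely OAS1, OAS2 and OAS3 with log2 fold changes of 0.74 to 0.82, while OASL had 0.10. Both MX genes did, with 1.31 and 0.69, and so did the sensing genes DHX58, IFIH1 (0.89) and TRIM21 (0.56). No IFIT and no IFITM gene did. IFIT3 had 0.49, IFIT5 0.22, IFIT2 -0.16, and the IFITM genes 0.16 to 0.26, although for IFIT3 and IFITM2 all NPM arrays lay above all NPC arrays. ISG15, the ubiquitin-like protein itself, had -0.07 and its ligase HERC5 -0.05.

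Under hypoxia the differences with TAMs had both signs, and 0 of the 34 genes passed. In HPM vs HPC the median log2 fold change was 0.19, and 21 genes were above 0, in a range from -0.75 to 0.99. At an adjusted p under 0.05 0.348% of all features rose and 0.676% fell. Before adjustment 7 genes had a p under 0.05 with a higher mean, namely DHX58, IFIH1, HERC5, EIF2AK2, ADAR, USP18 and UBA7, and 2, OASL and SAMD9, with a lower mean, against 8.00% and 12.5% of all features. All HPM arrays lay above all HPC arrays for 9 genes and below for 5, against 11.3% and 16.4% of all features. One fit over all 12 arrays called DHX58, ADAR and EIF2AK2 higher, 3 of 34, against 1.83% of all features. With the replicate block over the 12 arrays UBA7, USP18, IFIH1 and DHX58, 4 of 34, were called higher, against 2.99% of all features. The block over the 6 arrays left 0 of 34 higher, and 0.00% of all features.

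DHX58 had the smallest p, with a log2 fold change of 0.81 (SE 0.15, adjusted p = 0.0592), and IFIH1 followed with 0.92 (SE 0.21, adjusted p = 0.0878). For both sensors, every HPM array was above every HPC array. HERC5 had 0.69 (SE 0.18, adjusted p = 0.101). EIF2AK2, the kinase PKR that halts translation on double-stranded RNA, read 11.69, 11.55 and 11.42 in NPC, 11.87, 11.90 and 12.04 in NPM, 11.30, 11.25 and 10.99 in HPC, and 11.78, 11.71 and 11.74 in HPM. Its co-cultured arrays lay above the arrays of cells alone at both oxygen levels, with 0.38 (SE 0.15, adjusted p = 0.344) under normoxia and 0.57 (SE 0.15, adjusted p = 0.104) under hypoxia. ADAR, which edits adenosine to inosine in double-stranded RNA, read 11.73, 11.90 and 12.02 in NPC, 11.89, 11.81 and 12.04 in NPM, 11.31, 11.43 and 11.73 in HPC, and 12.25, 12.24 and 11.93 in HPM. ADAR overlapped under normoxia, with 0.03, and was apart under hypoxia, with 0.65 (SE 0.18, adjusted p = 0.115). OASL had -0.75 (SE 0.23, adjusted p = 0.14) in HPM vs HPC, but its second feature had -0.03.

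**Figure D4:**
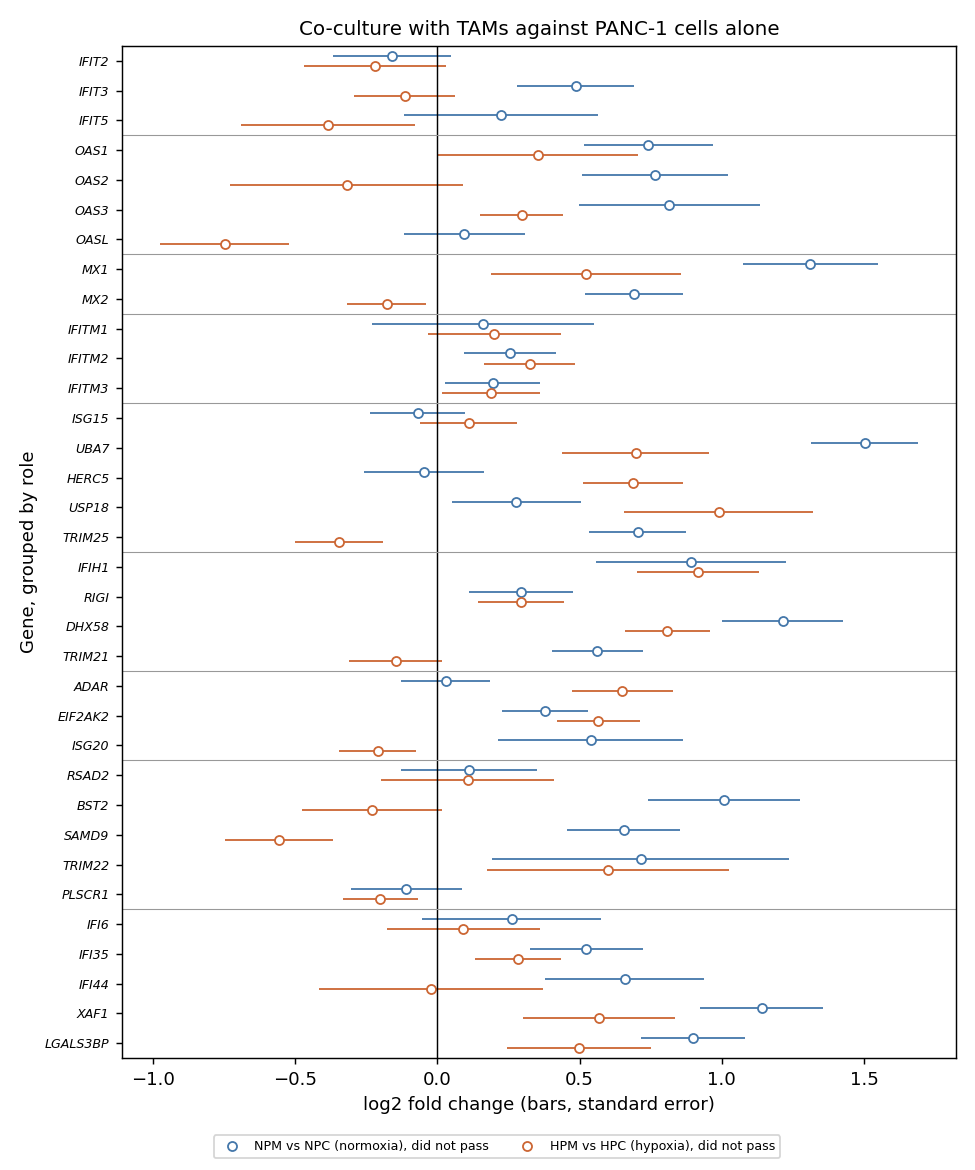
The horizontal axis is the log2 fold change of co-cultured cells over cells alone with its standard error for each of the 34 genes, under normoxia (NPM vs NPC, blue) and under hypoxia (HPM vs HPC, orange). No gene passed at an adjusted p under 0.05, so all points are open, and 30 blue and 21 orange points lie right of 0.

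Macrophage RNA was also examined, since THP-1 cells shared the wells. The summed intensity of 14 macrophage markers was 5409 to 6024 in NPC, 6378 to 6864 in NPM, 4654 to 4873 in HPC and 6810 to 7110 in HPM, and CD68 made up 59.9% to 76.0% of it. The other 13 markers summed to 1972 to 2030 in NPC, 2002 to 2065 in NPM, 1451 to 1930 in HPC and 1692 to 1727 in HPM, so that without CD68 the co-cultured groups overlapped the others. Of the 14, 7 had a negative log2 fold change in NPM vs NPC and 10 in HPM vs HPC, where the median was -0.28. The values ran from -3.24 to 1.34 in NPM vs NPC and from -0.68 to 1.14 in HPM vs HPC. In NPM vs NPC 1 marker fell and 0 rose (limma, adjusted p under 0.05), against 0.0145% and 0.00870% of all features. A sum over the markers can thus hide values of opposite sign. Of these 14 markers, 7, 9, 9 and 10 were within the lowest 25% of features on every array of NPC, NPM, HPC and HPM, among them CD14, LYZ, ITGAM and LAPTM5 in all 4 groups. Only CD68 lay within the highest 25%, and it read 11.72 to 11.98 in NPC, 12.10 to 12.23 in NPM, 11.49 to 11.65 in HPC and 12.32 to 12.39 in HPM. The part of macrophage RNA in the differences between co-cultured cells and cells alone was not tested.

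Whether the co-culture difference itself changed with oxygen was tested as an interaction over the 12 arrays, and none of the 34 genes passed. Of all features 0.174% had a positive and 0.278% a negative interaction at an adjusted p under 0.05. Before adjustment HERC5 and ADAR had a positive interaction with a p under 0.05, and 8 genes a negative one, against 5.09% and 6.35% of all features, and the median over the 34 genes was -0.39. The smallest p values belonged to TRIM25, with -1.05 (SE 0.22, adjusted p = 0.0749), SAMD9, with -1.21 (SE 0.27, adjusted p = 0.0947), MX2, with -0.87 (SE 0.21, adjusted p = 0.111), and TRIM21, with -0.71 (SE 0.22, adjusted p = 0.219). For TRIM25 and SAMD9 the co-cultured arrays were all above the arrays of cells alone under normoxia and all below them under hypoxia. How many of all features did the same was not counted. IFIT2, IFIH1 and RIGI had interaction values of -0.06, 0.02 and 0.00028, with standard errors of 0.33, 0.42 and 0.22.

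The other genes of the pathway were read from a list of 46 ligands, receptors, kinases, factors, adaptors and inhibitors, of which 31 were measured. In NPM vs NPC 0 passed. Before adjustment 7 had a p under 0.05 with a higher mean and 1 with a lower one, against 5.65% and 8.00% of all features. STAT2 (0.65) and the receptor chain IL10RB (0.60) had adjusted p values of 0.145 to 0.186, as had the type III interferon IFNL3, with -1.07. In HPM vs HPC IRF1 rose by 1.65 (SE 0.15, adjusted p = 0.0346), the 1 gene of the list that passed, where 0.348% of all features rose. With any 1 array left out, and with the replicate block over the 6 arrays, 0.00% of all features rose or fell there. IRF1 did not pass in these settings (adjusted p = 0.107 to 0.197 with 1 array left out and 0.0627 with the block). Next to it were IRF2 (0.93, adjusted p = 0.055) and IFNL2 (1.24, adjusted p = 0.107). IRF1 is a transcription factor whose binding sequence overlaps that of ISGF3, and it read 12.12, 11.94 and 11.97 in HPC and 13.60, 13.83 and 13.58 in HPM, against 12.16, 12.50 and 12.29 in NPC and 12.83, 12.76 and 12.44 in NPM. The HPM arrays of IRF1 were thus the highest, and a link between IRF1 and the antiviral genes was not tested.

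In HPC vs NPC none of the 31 passed, and the smallest p values were those of the inhibitor SOCS1 (-0.83), the adaptor MYD88 (-0.90) and IFNA4 (-1.37). In HPM vs NPM, 2 of the 31 fell and 2 rose, close to the shares of all features, of which 5.79% fell and 4.65% rose. The kinase IKBKE fell by 1.49 (SE 0.20, adjusted p = 0.0126) and MYD88 fell by 1.51 (SE 0.22, adjusted p = 0.0142), whereas IFNL2 rose by 1.76 (SE 0.28, adjusted p = 0.0172) and IRF1 by 0.99 (SE 0.17, adjusted p = 0.0215). With 1 array left out, IKBKE and MYD88 missed the threshold without NPM replicate 1 or 2, IFNL2 also without HPM replicate 3, and IRF1 passed only without NPM replicate 3. Without the arrays numbered 3 none of these genes passed in HPM vs NPM (adjusted p = 0.0811 to 0.101). IFNL2 ranked within the lowest 35.4% of features on every array, which leaves its level uncertain. In the interaction test IRF1 alone of the 31 passed, with 1.30 (SE 0.22, adjusted p = 0.0342), where 0.174% of all features had a positive interaction. It missed the threshold with each of the 12 arrays left out in turn (adjusted p = 0.0701 to 0.11) and with the replicate block (adjusted p = 0.0714). The 2 comparisons of hypoxia and the 2 of co-culture use the same 4 groups, so each array enters a comparison of both kinds.

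For comparison, of 13 measured genes induced mainly by interferon-gamma 1 rose and 0 fell in NPM vs NPC, against 0.00870% and 0.0145% of all features. Of these 13, 0 passed in HPM vs HPC or HPC vs NPC. In HPM vs NPM 1 rose and 4 fell, against 4.65% and 5.79% of all features. With 1 array left out 0 rose in NPM vs NPC, and 1 to 3 fell in HPM vs NPM. Their median log2 fold changes were 1.14, 0.41, -0.38 and -0.56 in the same order.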

How the data were processed

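Total RNA of 12 PANC-1 samples was labelled with Cy3 and hybridised to single-colour NimbleGen arrays. The authors scanned the arrays, applied quantile normalization and RMA in NimbleScan and used GeneSpring, and the deposited table holds linear intensities of 34487 features. A legend of the study describes quality flags (present or marginal) in GeneSpring for a cluster analysis, but whether they chose the deposited features was not given in the sources used here. No flag or background measure was used here, so a dim feature cannot be told from background and array number limits the precision. Intensities were log2-transformed without a floor or filter. Gene names came from the platform annotation (14133 features) and from RefSeq accessions (542 features), and 19812 features stayed unnamed.

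Each comparison was fitted on its 6 arrays with limma 3.58.1 (lmFit, eBayes) in R 4.3.3, two-sided, and the interaction on 12 arrays. P values were adjusted by the Benjamini-Hochberg method over all features, with a threshold of 0.05. The test was run on simulated data first. Members and gene lists were chosen with earlier results of these data known. Array values are given for genes that passed anywhere and for the genes with the smallest p in each comparison. Pathway genes are named by smallest p, up to 4 a comparison. Of that list 1 gene is not reported here. The hypoxia-induced list was added later.

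The labels give replicate numbers 1 to 3 in each group. Same-numbered arrays had correlated residuals in NPM vs NPC (0.338, 0.281 and 0.52) and in HPM vs HPC (0.502, 0.267 and 0.543), so that numbers were taken to pair arrays within an oxygen level. The main fits nevertheless held no replicate block, which was used in alternatives only. Between oxygen levels the values were 0.242, 0.025 and 0.376 in HPC vs NPC and 0.384, 0.0103 and 0.205 in HPM vs NPM. Numbers were not taken as pairs there, although a replicate block was fitted there too as an alternative. Alternatives changed the normalization, low-value filter, arrays in the fit, replicate block, variance settings, test, feature per gene and arrays left out.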

Additional observations from a re-analysis of the deposited data

Results flagged for a closer look

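SAMD9 and TRIM25 were flagged because the co-cultured arrays lay all above the arrays of cells alone under normoxia and all below them under hypoxia. The share of all features with both was not counted. Taken singly, 8.84% of all features lay above in NPM vs NPC and 16.4% lay below in HPM vs HPC. The interaction on the log2 scale was -1.21 for SAMD9 (adjusted p = 0.0947 from limma) and -1.05 for TRIM25 (adjusted p = 0.0749 from limma), and neither passed over all features.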

How the results depend on the processing

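Counts are genes at an adjusted p under 0.05, with the share of all features in brackets. With the lowest 25% of features left out, 29 of the 34 genes remained, and 3 (0.592%) were higher in NPM vs NPC, 2 (2.40%) higher in HPM vs HPC, 4 (1.08%) lower in HPC vs NPC and 1 (TRIM25, 0.758%) lower in the interaction. One fit over 12 arrays gave 5 (1.02%), 3 (1.83%) and 6 (1.67%) in the first 3 of these comparisons. Trended, robust variances gave 6 (1.19%), 3 (2.39%) and 8 (2.21%), and 1 (TRIM25, 0.673%) in the interaction. Averaging the features of a gene gave 1 higher (DHX58, 0.857%) in HPM vs HPC. The methods' t-test left 0 (0.0261%) lower in HPC vs NPC and 9 (3.75%) in HPM vs NPM. Without the arrays numbered 3, 0 genes and 0 features were lower in either hypoxia comparison. With 1 array left out, HPC vs NPC had 0 lower each time and HPM vs NPM between 3 and 8. No antiviral gene that passed in a comparison turned direction there under any of these alternatives.

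With the replicate block over 6 arrays, 0 (0.00%) were lower in HPC vs NPC and 9 (2.82%) in HPM vs NPM. In NPM vs NPC it called 0 higher (0.00%) and 0 lower (0.00290%), and in HPM vs HPC 0 in either direction (0.00%). The replicate block within an oxygen level over 12 arrays gave 6 (1.42%) higher in NPM vs NPC and 4 (2.99%) higher in HPM vs HPC. Where a call was lost or gained, the cause was not tested.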
